A study of Homo sapiens with 6 samples.

Results

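The receptor tyrosine kinases described here are 50 named genes, made up of 34 growth factor and related receptors, 14 Eph receptors and 2 collagen receptors. A gene was represented by every probe set that the array annotation assigns to it alone. By that rule 49 of the 50 genes were measured, with 191 probe sets, among 18132 genes and 49293 probe sets in all, and EPHB2 was not analysed here. The cells were U87, a widely used human glioma line, kept in DMEM with 10% fetal bovine serum. For 3 arrays they carried a lentivirus that expresses a hairpin targeting PCGF1 (PCGF1-shRNA, genotype PCGF1 knockdown, also labelled T0), and for 3 arrays a control lentivirus (NC, also labelled T1), so both groups are virus-treated. PCGF1 is a Polycomb protein of the PRC1.1 complex, which is brought to unmethylated CpG-rich promoters by its subunit KDM2B. The comparison asks which of these receptor genes differ between the knockdown and the control cells. T0 and T1 are not explained by the labels and cannot be told apart from the knockdown. The hairpin's sequence and the number of hairpins are not given in the sources used here. The replicates are called biological without a statement of separate cultures. The p-values therefore weigh each difference against the spread among these arrays, which may not be the spread among separate cultures.

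Receptor tyrosine kinases cross the cell membrane once. A ligand outside the cell brings receptors together, their kinase domains phosphorylate tyrosines on the partner, and adaptor proteins that bind those tyrosines pass the signal to the RAS-ERK, PI3K and phospholipase C gamma pathways. Eph receptors differ in that their ligands, the ephrins, sit on neighbouring cells, and the collagen receptors DDR1 and DDR2 differ in that their ligand is fibrillar or basement membrane collagen. In glioma the family is known above all for amplified or mutated EGFR, PDGFRA and MET.

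Each probe set's value is a log2 signal with the median of its 6 arrays at 0, and a gene's value is the mean over its probe sets. Such values show differences between arrays, not how strongly a gene is expressed, so levels of different receptors cannot be ranked and it is not known which of them lay above background. PCGF1 itself was at -0.27, -0.13 and -0.19 in the PCGF1-shRNA arrays, against 0.13, 0.27 and 0.29 in the NC arrays, a log2 fold change of -0.43 ± 0.06 (SE, limma adjusted p = 0.00410). PCGF1 was measured by 1 probe set, and its signal in the PCGF1-shRNA arrays was 0.74-fold that in the NC arrays. An exact permutation test over the 6 arrays gave p = 0.1 for PCGF1, the smallest value possible with 3 against 3. The number of arrays limits the precision: the median SE over the receptors was 0.05. Of markers of other cell types, 0 of 7 endothelial, 0 of 7 leukocyte and myeloid and 0 of 8 epithelial genes passed limma's adjusted threshold (3, 1 and 1 at an unadjusted p under 0.05), and 0 of 9 glial and neural genes did (0 unadjusted). Centred values do not show whether such markers were expressed, so the labelled cell type could not be checked by level.

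Among the 49 measured receptors 7 rose and 2 fell in the PCGF1-shRNA arrays, at a limma p adjusted over all genes under 0.05. That is 18.4% of the receptors, beside 11.0% of all genes (6.36% higher and 4.63% lower). EPHA2 and the collagen receptor DDR2 rose most. PDGFRB, KIT, DDR1, EPHA4 and PTK7 rose by less, and the neurotrophin receptor NTRK3 and EPHA10, an Eph receptor whose kinase domain is thought to be inactive, fell. All changes were small: the largest was 1.32-fold, and 49 of 49 receptors differed by less than 1.5-fold. The median log2 fold change was -0.02 over the receptors and -0.01 over all genes, and the median of its size was 0.07 in both. Since RNA was measured in bulk, fewer cells with a transcript and less of it per cell cannot be told apart.

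**Figure D1:**
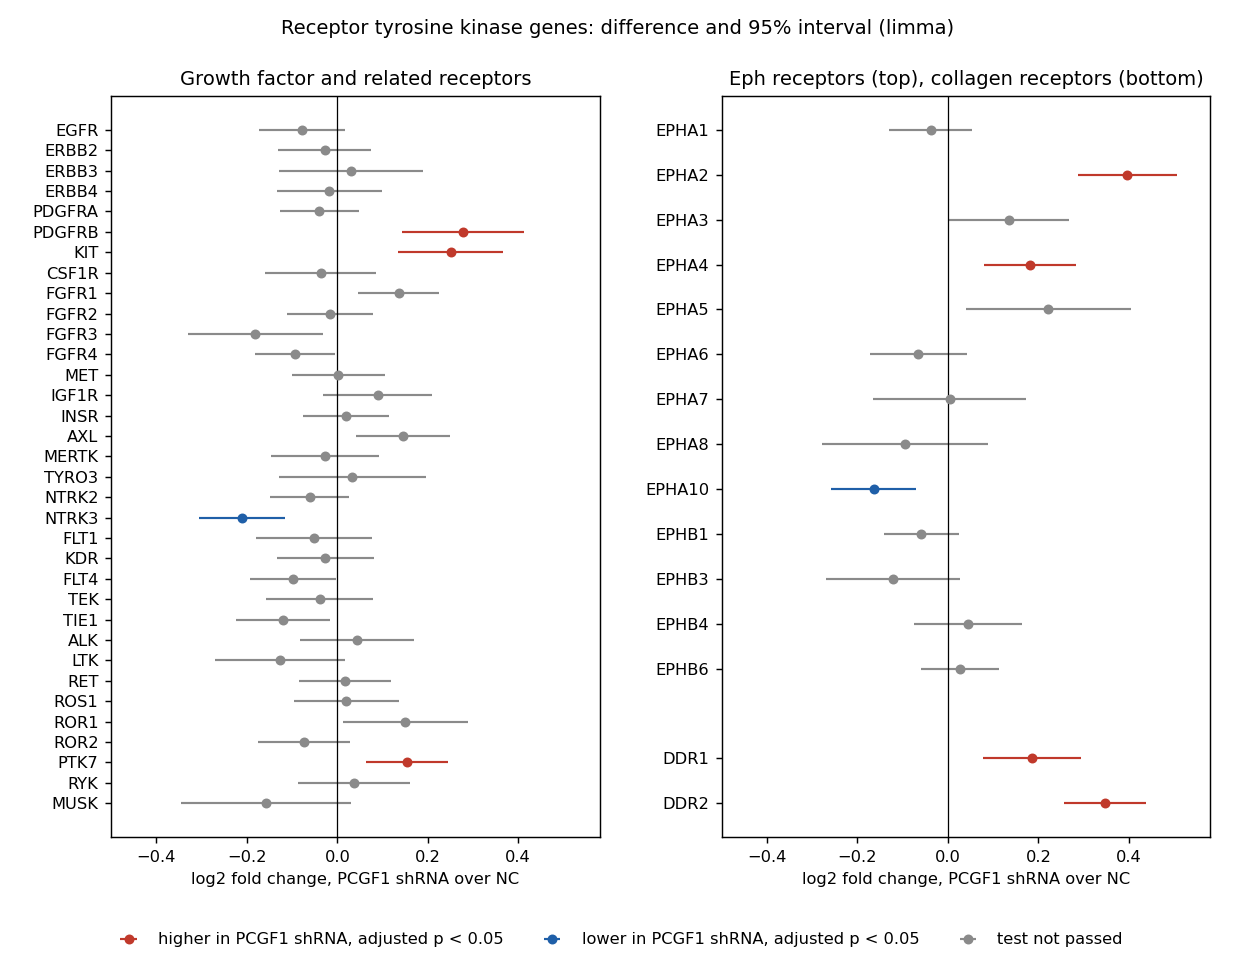
Log2 fold change of each measured receptor gene (x axis, PCGF1 shRNA over NC, with its 95% interval from limma, 3 arrays per group), growth factor and related receptors on the left and Eph and collagen receptors on the right. The 7 risen receptors are red, the 2 fallen ones blue and the 40 that did not pass the test grey; EPHA2 at 0.40 and DDR2 at 0.35 lie farthest from 0.

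In 20 of 49 receptors, or 40.8%, the 3 PCGF1-shRNA arrays all lay on one side of the 3 NC arrays, where the same held for 32.7% of all genes. Of these, 9 are the called receptors. The other 11 did not pass the test, 4 of them higher and 7 lower in the PCGF1-shRNA arrays. Without any 1 of the 6 arrays the number of called receptors was smaller, between 2 and 4 higher and between 0 and 1 lower. The calls for EPHA2 and DDR2 were kept in each of these fits and under all 14 alternatives tried.

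Since PRC1.1 acts at CpG-rich promoters, the promoter windows of 5 of the called receptors are shown with each CG in capitals, 250 bases before to 50 bases after the start, on the strand of the gene (RefSeq, GRCh38.p14). They were chosen to span the range from few to many CG among the receptors that passed the test, and where a gene has several windows the one with most CG is shown.
DDR2, chr1:162631725-162632024, plus strand: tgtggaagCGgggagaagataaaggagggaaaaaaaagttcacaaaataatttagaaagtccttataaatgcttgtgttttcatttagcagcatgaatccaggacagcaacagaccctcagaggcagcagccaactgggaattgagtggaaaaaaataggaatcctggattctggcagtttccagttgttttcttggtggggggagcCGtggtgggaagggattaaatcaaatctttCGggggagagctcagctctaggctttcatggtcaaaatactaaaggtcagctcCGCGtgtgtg
PDGFRB, chr5:150155796-150156095, minus strand: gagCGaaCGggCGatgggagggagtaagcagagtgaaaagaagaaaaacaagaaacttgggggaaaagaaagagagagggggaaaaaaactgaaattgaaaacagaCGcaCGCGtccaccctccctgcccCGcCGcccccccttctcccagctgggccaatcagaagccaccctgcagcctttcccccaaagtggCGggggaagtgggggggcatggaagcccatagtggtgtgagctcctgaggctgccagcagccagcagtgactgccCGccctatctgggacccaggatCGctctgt
EPHA2, chr1:16156020-16156319, minus strand: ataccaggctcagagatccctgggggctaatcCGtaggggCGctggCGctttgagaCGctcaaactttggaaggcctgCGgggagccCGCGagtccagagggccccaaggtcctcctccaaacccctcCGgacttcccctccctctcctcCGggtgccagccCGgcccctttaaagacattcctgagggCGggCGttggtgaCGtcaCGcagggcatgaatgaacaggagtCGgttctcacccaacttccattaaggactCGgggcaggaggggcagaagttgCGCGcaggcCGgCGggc
NTRK3, chr15:88256690-88256989, minus strand: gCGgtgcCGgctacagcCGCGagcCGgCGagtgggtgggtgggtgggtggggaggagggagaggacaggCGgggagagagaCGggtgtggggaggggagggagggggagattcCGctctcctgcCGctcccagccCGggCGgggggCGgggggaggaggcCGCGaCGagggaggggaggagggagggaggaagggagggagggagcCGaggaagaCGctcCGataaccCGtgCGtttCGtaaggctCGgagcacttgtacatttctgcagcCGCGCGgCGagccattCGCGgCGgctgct
KIT, chr4:54657707-54658006, plus strand: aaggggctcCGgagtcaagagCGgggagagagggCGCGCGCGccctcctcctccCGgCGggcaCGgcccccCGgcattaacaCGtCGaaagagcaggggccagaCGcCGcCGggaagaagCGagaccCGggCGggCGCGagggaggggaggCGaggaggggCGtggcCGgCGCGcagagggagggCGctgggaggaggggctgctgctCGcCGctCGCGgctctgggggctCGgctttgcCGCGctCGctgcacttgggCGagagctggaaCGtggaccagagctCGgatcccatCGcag

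The DDR2 window held 5 CG, and 29.6% of the 35116 windows in the table held fewer. The count was 11 for PDGFRB, 20 for EPHA2, 30 for NTRK3 and 38 for KIT, and the median over all windows was 14 (quartiles 4 and 28). Of the 50 receptors 46 matched the table, with 78 windows. Taking for each gene the window with most CG, the 7 risen receptors ranged from 5 to 38 CG (median 33) and the 37 that did not pass the test from 1 to 55 (median 29), so these ranges overlapped. The median over all genes in the table was 16. The GC box GGGCGG, searched on both strands and itself holding a CG, was present in 62.8% of the receptor windows and 45.0% of all windows. It occurred in the windows of PDGFRB, EPHA2, NTRK3 and KIT shown above and not in that of DDR2. The EPHA2 window also held TGACGTCA, a sequence that reads the same on both strands and was present in 2 of the 78 receptor windows, the other being one of FLT1, which did not pass, and in 1.85% of all windows. The other motifs searched on both strands were TGANTCA, in 7 of the 78 receptor windows and 7.71% of all windows, and TATAAA, in 5 of the 78 and 11.5% of all. Such matches describe these letters and show no binding.

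Among the 34 growth factor and related receptors 3 rose and 1 fell, 11.8% beside 11.0% of all genes, a share near that of the whole array. The receptors that passed were PDGFRB and KIT of the PDGF receptor class, NTRK3 of the neurotrophin receptors and PTK7. None of the 4 ERBB receptors, 4 FGF receptors, 2 insulin and IGF receptors, 3 TAM receptors, 3 VEGF receptors, 2 TIE receptors or 2 members of the ALK family passed, nor did MET, RET or ROS1. At an unadjusted p under 0.05 limma had FGFR1, FGFR3, FGFR4, AXL, FLT4, TIE1 and ROR1 among those that did not pass.

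PDGFRB, the receptor for PDGF-B and a marker of mesenchymal and perivascular cells, was at 0.18, 0.12 and 0.06 in the PCGF1-shRNA arrays, against -0.06, -0.15 and -0.26 in the NC arrays. The groups did not overlap, although the lowest knockdown and the highest control array lay close to each other. Among the called receptors, the nearest arrays of the groups lay closer still for PTK7, DDR1, EPHA4 and EPHA10. PDGFRB averaged 0.12 ± 0.06 in PCGF1-shRNA and -0.16 ± 0.10 in NC arrays (SD, n = 3 each), a rise of 0.28 ± 0.06 on the log2 scale (SE, limma adjusted p = 0.0223). KIT, the receptor for stem cell factor, was at 0.09, 0.18 and 0.14 in the PCGF1-shRNA arrays, against -0.10, -0.05 and -0.20 in the NC arrays. It rose by 0.25 ± 0.05 on the log2 scale (SE, limma adjusted p = 0.0189). PDGFRB no longer passed when either of knockdown replicates 1 and 2 or of control replicates 2 and 3 was left out (highest adjusted p 0.0767). KIT did not pass when either of knockdown replicates 2 and 3 or of control replicates 1 and 3 was left out (highest adjusted p 0.0638).

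The genes of this class have neighbours among the receptors in the genome, by the order of protein-coding genes in RefSeq. PDGFRA, KIT and the VEGF receptor gene KDR lie in a row, and CSF1R lies beside PDGFRB. The neighbours did not pass the test where KIT and PDGFRB did. PDGFRA, the PDGF receptor typical of glial progenitors, had a log2 fold change of -0.04 (95% interval -0.13 to 0.05). KDR, the main VEGF receptor, was at -0.03, and CSF1R, the receptor of macrophages for CSF1, at -0.04 (limma adjusted p = 0.773 and 0.721). The differences between neighbours were not tested.

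NTRK3, the receptor for neurotrophin-3, fell. Its signal was -0.07, -0.17 and -0.15 in the PCGF1-shRNA arrays, against 0.08, 0.08 and 0.09 in the NC arrays, which were nearly identical. The difference was -0.21 ± 0.04 (SE, limma adjusted p = 0.0176). All 4 probe sets were lower, between -0.36 and -0.13, with 1 of them passing alone. The call for the NTRK3 average was kept without knockdown replicate 1 and lost without any other array (limma adjusted p up to 0.0650). NTRK2, the receptor for the neurotrophin BDNF, was at -0.06 ± 0.04 and did not pass (limma adjusted p = 0.358).

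PTK7, a receptor with an inactive kinase that takes part in Wnt and planar polarity signalling, was at 0.04, 0.08 and 0.09 in the PCGF1-shRNA arrays, against -0.12, -0.09 and -0.05 in the NC arrays. It rose by 0.15 ± 0.04 (SE, limma adjusted p = 0.0446), with all 5 probe sets above 0 and none of them passing alone. The call lay close to the threshold and was lost without any 1 of the 6 arrays (adjusted p 0.0749 to 0.132). Of the other receptors that bind Wnt ligands, ROR1 was at 0.15 ± 0.06 (0.10 without knockdown replicate 2, and 0.05 when _s_at and _x_at probe sets were dropped), ROR2 at -0.07 ± 0.04 and RYK at 0.04 ± 0.05 (limma adjusted p 0.154, 0.343 and 0.722).

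**Figure D2:**
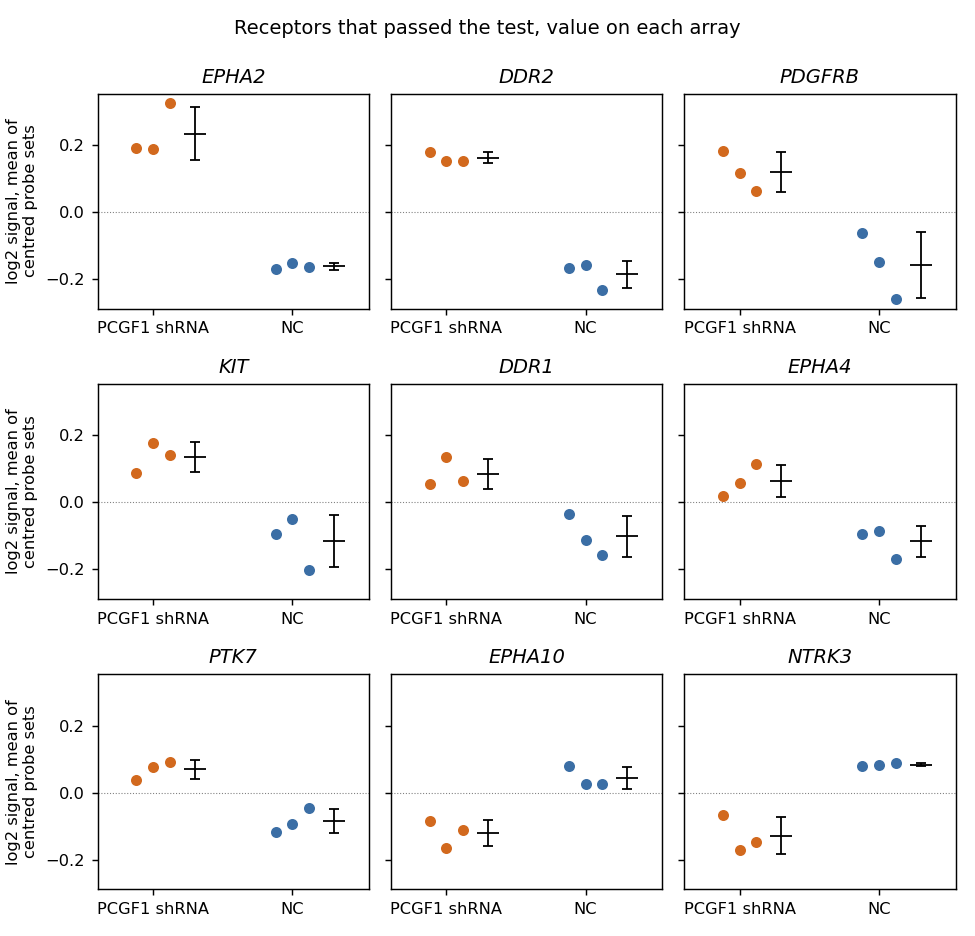
Log2 signal as the mean of each gene's centred probe sets (y axis) of the 9 receptors that passed the test, 1 point per array, with PCGF1 shRNA arrays on the left and NC arrays on the right of each panel; black marks are the mean ± SD of 3 arrays. Groups do not overlap in any panel, and the gap is widest for EPHA2 and DDR2.

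The 3 receptors best known in glioma did not pass. EGFR, the receptor for EGF and related ligands, was at -0.04, -0.08 and 0.00 in the PCGF1-shRNA arrays, against 0.00, 0.07 and 0.05 in the NC arrays. This is a log2 fold change of -0.08 (95% interval -0.17 to 0.02, limma adjusted p = 0.277). MET, the receptor for HGF, was at 0.00 (95% interval -0.10 to 0.11, limma adjusted p = 0.980). PDGFRA is given above. For the average of their probe sets, none of these 3 intervals reaches further from 0 than -0.17. ERBB2, ERBB3 and ERBB4 lay between -0.03 and 0.03 (limma adjusted p 0.743 to 0.863).

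FGFR1 and AXL lay just outside the threshold with groups that did not overlap. FGFR1, a receptor for fibroblast growth factors, was at 0.09, 0.05 and 0.09 in the PCGF1-shRNA arrays, against -0.10, -0.06 and -0.02 in the NC arrays (log2 fold change 0.14 ± 0.04, SE, limma adjusted p = 0.0650). AXL, a TAM receptor that binds GAS6, was at 0.10, 0.06 and 0.04 in the PCGF1-shRNA arrays, against -0.15, -0.04 and -0.03 in the NC arrays (0.14 ± 0.05, SE, limma adjusted p = 0.0806). FGFR3 and FGFR4, which bind other sets of fibroblast growth factors, had values of the opposite sign, -0.18 ± 0.06 and -0.09 ± 0.04 (limma adjusted p 0.117 and 0.165). FGFR3 rested partly on control replicate 2 at 0.29, and without it the value was -0.11. FGFR2 was at -0.02.

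The remaining growth factor and related receptors also did not pass. LTK was at -0.13 ± 0.06 and its relative ALK at 0.04 ± 0.05, RET, the receptor for GDNF family ligands, at 0.02 and ROS1 at 0.02. MUSK, the receptor that organises the neuromuscular synapse, was at -0.16 with an SE of 0.08. Its 3 knockdown and 3 control arrays overlapped, since control replicate 3 was at -0.07 (limma adjusted p = 0.267). The LTK groups did not overlap, with knockdown replicate 3 at -0.23 far below the other two at -0.04 and -0.01, against 0.01 to 0.07 in the NC arrays (limma adjusted p = 0.242).

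The receptors of blood and lymphatic vessels, FLT1, KDR, FLT4, TEK and TIE1, all had negative fold changes, between -0.12 for TIE1 and -0.03 for KDR, and none passed the test (limma adjusted p 0.130 to 0.773). Judged by its most variable probe set instead of the mean, TIE1 passed at -0.34 (adjusted p = 0.0352) and FLT4 was at 0.034 rather than -0.10. Of the 7 endothelial markers 7 were lower too (median log2 fold change -0.05). So were 8 of 9 glial and neural, 5 of 7 leukocyte and myeloid and 5 of 8 epithelial markers, and 9675 of all 18132 genes. The mean level of the endothelial markers lay between -0.08 and -0.01 in the PCGF1-shRNA arrays and between 0.01 and 0.08 in the NC arrays. The mean of the 9 glial and neural markers lay between -0.06 and -0.03 in the PCGF1-shRNA arrays and between -0.01 and 0.06 in the NC arrays. The part of these markers in the values of the receptors was not tested.

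Among the 13 measured Eph receptors 2 rose and 1 fell, 23.1% beside 11.0% of all genes, all 3 of them EphA receptors. EphA receptors mainly bind the ephrins anchored by a lipid, and EphB receptors those that cross the membrane. The 4 measured EphB receptors lay between -0.12 and 0.04 and did not pass (limma adjusted p 0.276 to 0.716, 0 at an unadjusted p under 0.05), although the 3 knockdown arrays of EPHB1 lay below its 3 control arrays, at -0.06 ± 0.04. Whether EphA and EphB receptors differ was not tested.

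EPHA2, a receptor abundant in glioma and other tumours and able to drive migration without its ligand, was at 0.19, 0.19 and 0.32 in the PCGF1-shRNA arrays, against -0.17, -0.15 and -0.17 in the NC arrays. Knockdown replicate 3 stood above the other two, and the NC arrays were nearly identical. EPHA2 averaged 0.23 ± 0.08 in PCGF1-shRNA and -0.16 ± 0.01 in NC arrays (SD, n = 3 each), and the log2 fold change of 0.40 ± 0.05 (SE, limma adjusted p = 0.00255) is a 1.32-fold rise. Its 2 probe sets rose by 0.45 and 0.34. With any 1 array left out the adjusted p lay between 0.00813 and 0.0134.

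EPHA4, which binds ephrins of both classes and is known from axon guidance, was at 0.02, 0.06 and 0.11 in the PCGF1-shRNA arrays, against -0.09, -0.09 and -0.17 in the NC arrays. It rose by 0.18 ± 0.04 (SE, limma adjusted p = 0.0384). EPHA10 was at -0.09, -0.16 and -0.11 in the PCGF1-shRNA arrays, against 0.08, 0.03 and 0.03 in the NC arrays, and fell by 0.16 ± 0.04 (SE, limma adjusted p = 0.0399). All 3 probe sets of EPHA10 were lower, with none of them passing alone. Both calls were lost without any 1 of the 6 arrays, with adjusted p between 0.0594 and 0.119 for EPHA4 and between 0.0660 and 0.111 for EPHA10. EPHA5 had a larger fold change, 0.22, but its knockdown arrays were spread from -0.08 to 0.24, against -0.20 to -0.08 in the NC arrays, and it did not pass (SE 0.08, limma adjusted p = 0.117). Without knockdown replicate 1 EPHA5 was at 0.31 with an adjusted p of 0.0291. EPHA1, EPHA6, EPHA7 and EPHA8 lay between -0.09 and 0.00 and did not pass (limma adjusted p 0.420 to 0.983).

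None of the 8 ephrins passed the test (0 at limma adjusted p under 0.05, 2 unadjusted, EFNA4 and EFNA5), where 11.0% of all genes did. With so few genes this count does not set the ephrins apart. Their log2 fold changes lay between -0.12 for EFNA5 and 0.16 for EFNA4 (limma adjusted p 0.109 and 0.0653), with a median of -0.04.

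Both collagen receptors rose, and so did some of the collagens they bind. DDR2, which recognises fibrillar collagens and is typical of mesenchymal cells, was at 0.18, 0.15 and 0.15 in the PCGF1-shRNA arrays, against -0.17, -0.16 and -0.23 in the NC arrays. The arrays of each group lay close together and the groups were far apart. DDR2 rose by 0.35 ± 0.04 on the log2 scale (SE, limma adjusted p = 0.00193), or 1.27-fold. All 5 probe sets of DDR2 passed the test alone, at 0.27 to 0.41. DDR1, which is found mainly in epithelial cells and binds both fibrillar and basement membrane collagens, was at 0.05, 0.14 and 0.06 in the PCGF1-shRNA arrays, against -0.04, -0.11 and -0.16 in the NC arrays. It rose by 0.19 ± 0.05 (SE, limma adjusted p = 0.0420), a call kept without control replicate 1 and lost without any other array (adjusted p up to 0.129). The 4 probe sets of DDR1 were spread from -0.18 to 0.51.

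Of 12 collagen chains that DDR1 or DDR2 can bind, 5 rose and 0 fell, 41.7% beside 11.0% of all genes, with a median log2 fold change of 0.09. Over the 12 chains 9 fold changes were positive and 3 negative, the lowest at -0.12, and 7 chains did not pass. This list, too, was chosen with earlier results of these data known. COL5A1, a chain of fibrillar type V collagen, was at 0.48, 0.40 and 0.53 in the PCGF1-shRNA arrays, against -0.41, -0.48 and -0.44 in the NC arrays. It rose by 0.91 ± 0.05 (SE, limma adjusted p = 0.000149). The type I collagen chains COL1A1 and COL1A2 rose by 0.61 ± 0.06 and 0.60 ± 0.05. Where the probe set with the largest SD stood for the gene, COL1A1 was at 0.95 and COL1A2 at 1.16.

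Taken as single probe sets, 20 of 191 receptor probe sets passed the test, 16 higher and 4 lower, 10.5% beside 7.24% of the 49293 probe sets (4.30% higher and 2.94% lower). With any 1 array left out between 5 and 8 were higher and between 0 and 4 lower. The 20 belonged to 12 genes, 5 of which did not pass as an average: EGFR, FGFR1, AXL, TIE1 and EPHA3. With 43 receptors represented by 2 or more probe sets, limma's diffSplice asked whether the knockdown difference was the same in all probe sets of a gene. It called 4 receptors (F test, adjusted over 11734 genes), DDR1, EPHA3, PDGFRB and TIE1. Over all genes tested 2.78% were called, and without any 1 array between 0 and 2 receptors were.

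DDR1 had the clearest disagreement (adjusted p = 0.00772). A pair of its probe sets rose by 0.51 and 0.36, another was at 0.05 and the fourth at -0.18. The probe set with the largest rise was at 0.30, 0.20 and 0.31 in the PCGF1-shRNA arrays, against -0.20, -0.26 and -0.26 in the NC arrays, a wider separation than that of the gene average. The risen pair was designed on a RefSeq mRNA and the other pair on other cDNA records.

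EPHA3, which binds ephrin-A5, passed in 1 of 3 probe sets (disagreement adjusted p = 0.0181). That probe set, designed on the RefSeq mRNA for the full-length receptor, was at 0.09, 0.39 and 0.27 in the PCGF1-shRNA arrays, against -0.09, -0.36 and -0.42 in the NC arrays, and rose by 0.54 ± 0.11 (SE, limma adjusted p = 0.0246). Another, also designed on a RefSeq mRNA but that of a short secreted form, was at -0.11, and the third, designed on another cDNA record, at -0.03. The average of the 3, 0.13, did not pass (limma adjusted p = 0.181), and the probe sets disagree about whether EPHA3 changed.

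PDGFRB rose in 1 of 3 probe sets, by 0.55 ± 0.06 (SE, limma adjusted p = 0.00262), with the others at 0.19 and 0.09 (disagreement adjusted p = 0.0493). TIE1, a receptor of endothelial cells that modulates TEK, had 2 of 7 probe sets lower, at -0.26 and -0.34, and 2 slightly above 0 (disagreement adjusted p = 0.0490). KIT had 2 of 3 probe sets higher, at 0.50 and 0.22, and the remaining 1 at 0.03 (disagreement adjusted p = 0.0989). The EPHA4 average rested mainly on 1 of 4 probe sets, at 0.40, the others lying between 0.05 and 0.18 (disagreement adjusted p = 0.232). Where the most variable probe set stood for the gene, the log2 fold change was 0.55 for PDGFRB, 0.50 for KIT, 0.40 for EPHA4, 0.51 for DDR1 and -0.36 for NTRK3. With the median of the probe sets in place of their mean PDGFRB, EPHA4, PTK7 and EPHA10 did not pass. When _s_at and _x_at probe sets were dropped, DDR1, EPHA4, PTK7 and EPHA10 did not pass (limma adjusted p 0.0618, 0.0543, 0.0673 and 0.0597). The fold change of DDR1 was then 0.17, while those of EPHA4, PTK7 and EPHA10 stayed at 0.18, 0.15 and -0.16. For these latter genes only the variance fit and adjustment over all genes had shifted. By their most variable probe set PTK7 and EPHA10 did not pass (limma adjusted p 0.405 and 0.263).

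EGFR had 8 probe sets, of which 1 fell by 0.29 ± 0.07 (SE, limma adjusted p = 0.0484), designed on a RefSeq mRNA for a short form of the receptor that is secreted. It was at -0.30, -0.06 and -0.25 in the PCGF1-shRNA arrays, against 0.06, 0.08 and 0.13 in the NC arrays. The other 7 lay between -0.20 and 0.07 and did not pass, and diffSplice did not call a difference between the 8 (adjusted p = 0.390). Of the receptor probe sets designed on a RefSeq mRNA 11 of 59 passed the test, and of those designed on other cDNA or EST records 9 of 132. Over all probe sets tested the shares were 8.10% for RefSeq mRNA records and 6.88% for the others. Where on the transcript a probe set lies is not given in the sources used here. Which forms of EGFR or EPHA3 their probe sets detect is therefore not known from the design record alone.

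**Figure D3:**
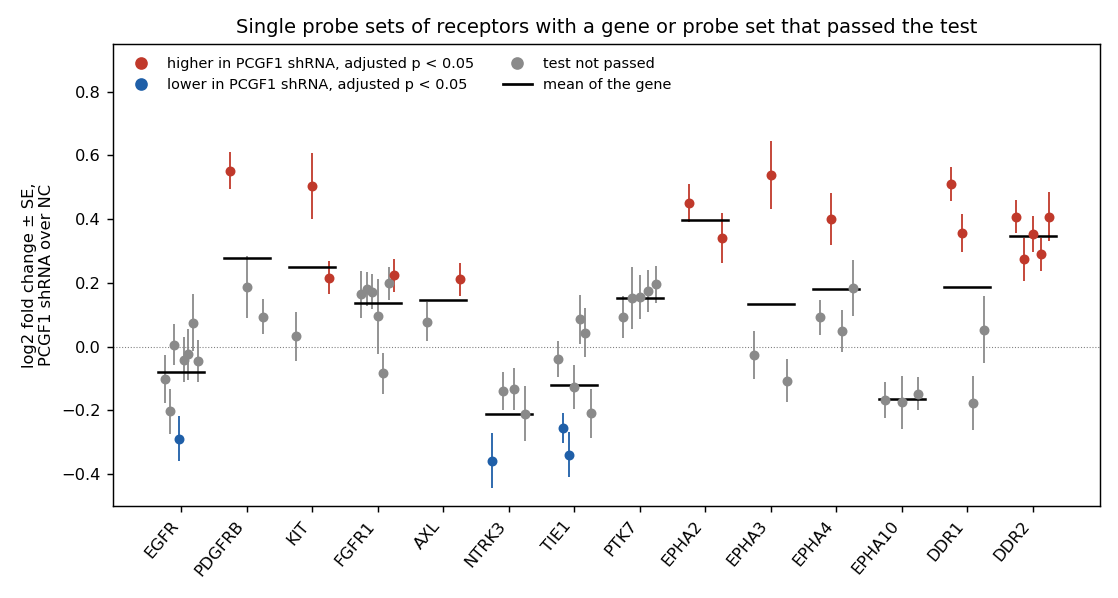
Log2 fold change ± SE (y axis, PCGF1 shRNA over NC, 3 arrays per group) of each probe set of the 14 receptors with a gene average or a probe set that passed the test; the black line is the gene's mean. The 5 probe sets of DDR2 lie together above 0, whereas those of DDR1, EPHA3, KIT, PDGFRB and TIE1 are spread over more than 0.4.

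The ligands, partners and regulators of the receptors were examined as 8 lists, with 128 genes measured. Of these 20 rose and 10 fell, 23.4% beside 11.0% of all genes, and the median log2 fold change was 0.03 beside -0.01 over all genes. The lists were chosen by role, with earlier results of these data known. The counts therefore describe the lists and do not test for an excess. Of the 26 genes named from them 7 had a fold change larger in size than that of EPHA2, and 13 of the 26 kept their call under every alternative tried.

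Of 10 ERBB ligands 1 rose and 2 fell, 30% beside 11.0% of all genes. EREG, the ligand epiregulin of EGFR and ERBB4, was at -0.46, -0.32 and -0.30 in the PCGF1-shRNA arrays, against 0.32, 0.17 and 0.23 in the NC arrays, and fell by 0.60 ± 0.06 (SE, limma adjusted p = 0.00105). EGF rose by 0.23 ± 0.04 (0.39 in its most variable probe set) and NRG1, the neuregulin that binds ERBB3 and ERBB4, fell by 0.15 ± 0.04 (-0.31 in its most variable probe set). The call for NRG1 was lost without any 1 of the 6 arrays (adjusted p 0.0697 to 0.129). EGF did not pass when knockdown replicate 3, control replicate 1 or control replicate 3 was left out (highest adjusted p 0.0583).

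Of 30 other growth factor ligands 4 rose and 3 fell, 23.3% beside 11.0% of all genes. GAS6 and PROS1, the ligands of the TAM receptors AXL, MERTK and TYRO3, both rose. GAS6 was at 0.26, 0.16 and 0.30 in the PCGF1-shRNA arrays, against -0.27, -0.20 and -0.16 in the NC arrays, a rise of 0.44 ± 0.05 (SE, limma adjusted p = 0.00218). PROS1 rose by 0.27 ± 0.04 (SE, limma adjusted p = 0.00421). The 3 receptors did not pass, at 0.14 for AXL, -0.03 for MERTK and 0.03 for TYRO3. BDNF, the ligand of NTRK2, rose by 0.33 ± 0.04 (SE, limma adjusted p = 0.00278).

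HGF, the ligand of MET, was at -0.14, -0.15 and -0.04 in the PCGF1-shRNA arrays, against 0.08, 0.12 and 0.18 in the NC arrays, and fell by 0.24 ± 0.05 (SE, limma adjusted p = 0.0204). FGF5, a fibroblast growth factor, fell by 0.24 ± 0.05 and VEGFA, the ligand of FLT1 and KDR, by 0.19 ± 0.04 (-0.31 in its most variable probe set). The call for VEGFA was lost without any 1 of the 6 arrays (adjusted p 0.0532 to 0.0896). HGF passed without knockdown replicate 3 and without control replicate 1, and FGF5 without knockdown replicate 1 and without control replicate 1, and neither passed when any other array was left out (highest adjusted p 0.0715 and 0.0683).

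**Figure D4:**
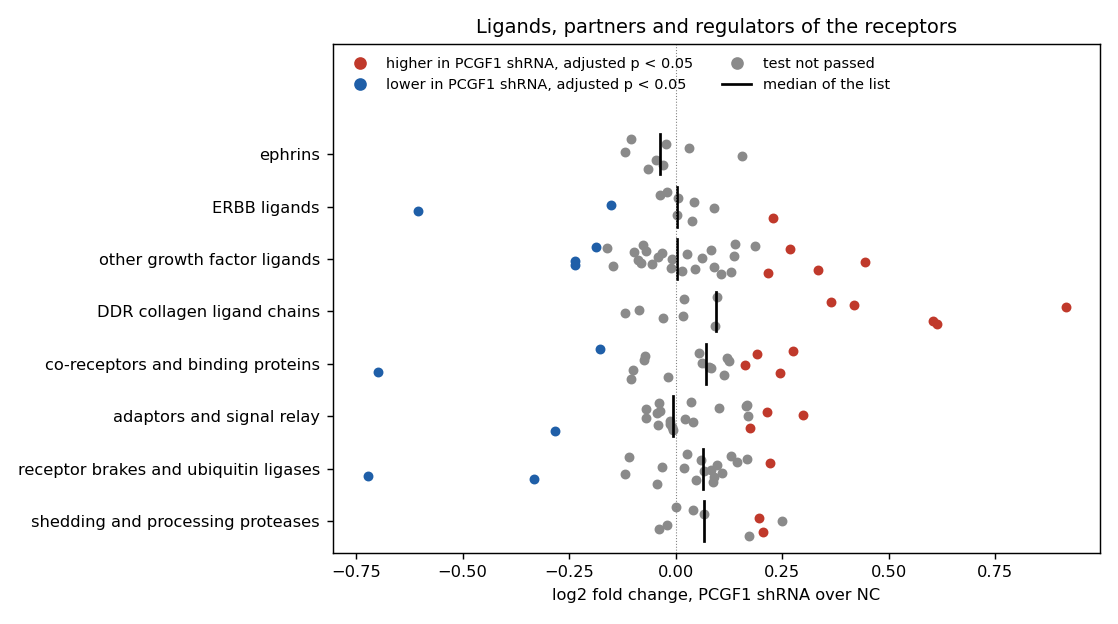
Log2 fold change (x axis, PCGF1 shRNA over NC, 3 arrays per group) of each measured gene in the 8 lists of ligands, partners and regulators, 1 point per gene, with the median of each list as a black line. Ephrins show no called gene, the collagen chains have 5 risen genes up to 0.91, and GRB14 among the brakes is lowest at -0.72.

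Of 18 co-receptors and binding proteins 4 rose and 2 fell, 33.3% beside 11.0% of all genes. IGFBP1, a secreted protein that binds insulin-like growth factors, fell by 0.70 ± 0.07 (SE, limma adjusted p = 0.000994), with its 3 PCGF1-shRNA arrays at -0.25, -0.42 and -0.49 and its NC arrays at 0.30, 0.38 and 0.25. IGF2R, which removes IGF2 from the cell surface, rose by 0.25 ± 0.04 and SDC1, a heparan sulfate proteoglycan, by 0.28 ± 0.05. SDC4, another such proteoglycan, fell by 0.18 ± 0.05 and NRP1, a co-receptor for VEGF and semaphorins, rose by 0.19 ± 0.05, with SDC4 at -0.34 in its most variable probe set and -0.10 by the median of its probe sets, and both calls were lost without any 1 of the 6 arrays (adjusted p up to 0.126 and 0.135). IGF1R and INSR themselves were at 0.09 and 0.02 and did not pass (limma adjusted p 0.326 and 0.811).

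Of 21 adaptors and relay proteins 3 rose and 1 fell, 19.0% beside 11.0% of all genes. PLCG1, phospholipase C gamma, rose by 0.30 ± 0.04 (SE, limma adjusted p = 0.00531) and CRKL, an adaptor with SH2 and SH3 domains, fell by 0.28 ± 0.04 (SE, limma adjusted p = 0.00617). The adaptors SHC1 and GAB1 rose by 0.22 ± 0.05 and 0.17 ± 0.04 (0.37 and 0.30 in the most variable probe set of each). SHC1 passed without knockdown replicate 2 and without control replicate 3 and did not pass when any other array was left out (highest adjusted p 0.0821). The GAB1 call was kept without control replicate 3 and lost without any other array (highest adjusted p 0.0988).

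Of 20 receptor brakes and ubiquitin ligases 1 rose and 2 fell, 15% beside 11.0% of all genes, a share near that of the whole array. GRB14, which binds and inhibits the insulin receptor, was at -0.32, -0.39 and -0.35 in the PCGF1-shRNA arrays, against 0.33, 0.43 and 0.35 in the NC arrays, and fell by 0.72 ± 0.04 (SE, limma adjusted p = 0.000193). ERRFI1, a feedback inhibitor that binds the EGFR kinase domain, fell by 0.33 ± 0.04 (SE, limma adjusted p = 0.00148). It was measured by 1 probe set. PTPRK, a receptor phosphatase that acts on EGFR, rose by 0.22 ± 0.05 (SE, limma adjusted p = 0.0218), a call kept without control replicate 2 and lost without any other array (highest adjusted p 0.0730). The value was 0.50 in its most variable probe set and 0.11 when _s_at and _x_at probe sets were dropped. Of 9 shedding and processing proteases 2 rose and 0 fell, 22.2% beside 11.0% of all genes. The metalloprotease ADAM12 rose by 0.21 ± 0.04 (0.44 in its most variable probe set) and the gamma-secretase subunit NCSTN by 0.20 ± 0.04. The call for ADAM12 was lost when _s_at and _x_at probe sets were dropped, and that for NCSTN was kept only without knockdown replicate 2 when an array was left out (adjusted p up to 0.0631). By the most variable probe set NRG1, FGF5, HGF, IGF2R, NRP1 and GAB1 did not pass. Dropping _s_at and _x_at probe sets also ended the calls for NRG1, NRP1, GAB1, PTPRK and NCSTN, and the median of probe sets those for NRG1, NRP1, SDC4 and GAB1. SDC4 did not pass after quantile normalization either.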

How the data were processed

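RNA of U87 cells, 12 µg per sample, was labelled with biotin as cRNA and hybridised to 6 Affymetrix arrays, per the labels' protocols. The authors deposited 1 log2 value per probe set and array, made with RMA (background correction, normalization and summary of probes) per the submitters' processing notes; its version is not given in the sources used here. The log base is taken from RMA. The deposited log2 values are centred: the median of each probe set over its 6 arrays is 0, to within 4.85e-07, and 0 per-sample columns were left unused.

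After 102 control probe sets were left out, 49293 were kept with no filter on low values, 44988 of them with 1 gene symbol in the platform annotation. Probe sets of a gene were averaged, giving 18132 genes. PCGF1-shRNA was compared with NC by limma 3.58.1 in R 4.3.3 (lmFit, eBayes, two-sided, no covariates), with Benjamini-Hochberg adjustment over all genes and a threshold of 0.05. Probe sets were fitted in the same way, and diffSplice tested disagreement within genes, taking probe sets as independent. SEs and 95% intervals are limma's. The fits were tested on simulated data. Alternatives changed the array scaling, the probe-set summary, the array weights, the block and the variance fit, or left out 1 array.

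The members, lists and tests were chosen with earlier results of these data known. The rule named PCGF1, receptors that passed or whose groups did not overlap, other receptors by value, and at most 3 called genes per list and direction. Single probe sets, EFNA4, EFNA5 and the promoters shown were picked after their values were seen.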

Additional observations from a re-analysis of the deposited data

How the results depend on the processing

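Of the 14 alternatives, quantile normalization, centring of arrays, array weights and robust variance each called the same 7 higher and 2 lower receptors as the fit reported. The most variable probe set also gave 7 and 2, but 7 receptors in all were shared. PTK7 and EPHA10 were lost, while EPHA3 (0.54, limma adjusted p = 0.0242) and TIE1 passed, by a choice of probe set that favours large differences. The median of probe sets gave 4 higher and 1 lower, and so did leaving out the _s_at and _x_at probe sets, which also brought the receptors with disagreeing probe sets to 2. With any 1 array left out, 2 to 4 receptors were higher and 0 to 1 lower. Over all genes 553 to 812 were then higher and 395 to 590 lower, against 1154 and 840 with all arrays. In the lists 12 to 16 were then higher and 5 to 7 lower, against 20 and 10. Of the receptor probe sets 5 to 8 were then higher and 0 to 4 lower, against 16 and 4, and 0 to 2 receptors had disagreeing probe sets, against 4. Fewer arrays enter these fits. The cause of the other shifts was not tested.

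With the replicate number as a block, 4 receptors were higher and 0 lower, 596 genes higher and 440 lower, 13 list genes higher and 6 lower, and 5 receptor probe sets higher and 0 lower. Deviations from the group means correlated at -0.05 to 0.01 between same-numbered arrays, and 1 of 3 knockdown and 1 of 3 control arrays correlated best with its own number. With 3 arrays a group these values show no pairing by number but cannot decide whether same-numbered arrays share a batch or culture.

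Of 640 recomputed values for 46 single genes, 506 kept their direction and side of the threshold, 131 no longer passed and 2 passed newly. One turned its sign, FLT4, at 0.034 with the most variable probe set against -0.10, and it passed in neither. With 3 arrays a group the median 95% interval of the receptors that did not pass reached 0.12 to either side. The centring of each probe set hides which receptors lie above background.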
